A study of Mus musculus with 2 samples.

Results

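The bone morphogenetic protein (BMP) and roof plate genes described here were 8 of the 32285 genes listed in the count matrices, taken by their symbols: the ligand genes Bmp4, Bmp6 and Bmp7, the BMP target genes Id1, Id3 and Msx1, the roof plate transcription factor gene Lmx1a, and Ttr. They were measured by droplet single-cell RNA sequencing of dorsal telencephalon from mouse embryos labelled EomesDot and WT, at embryonic day (E) 14.5. The series title calls them controls of an Eomes-Cre line, the sample labels give the tissue as brain hemispheres, and the study's methods describe C57BL/6J mice for this stage, so the strain is not certain. The 2 libraries, replicate 2 and replicate 4, formed a single group without a treatment or a mutant, and the labels do not say how many embryos went into each. Every comparison was therefore made between cell classes within these libraries. P-values measured the spread between the 2 libraries, which may be technical.

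BMPs are secreted ligands that bind paired type I and type II serine/threonine kinase receptors, which phosphorylate SMAD1, SMAD5 and SMAD9 and let them act with SMAD4 on target genes. In the embryonic forebrain, the dorsal midline is the classical source of BMPs. There the roof plate gives rise to the cortical hem, which secretes WNTs and BMPs and generates Cajal-Retzius neurons, and to the epithelium of the choroid plexus, which makes cerebrospinal fluid. The meninges that cover the cortex also secrete BMPs.

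By the RefSeq annotation of mouse build GRCm38.p6, the build the submitters' processing notes name as mm10, Bmp4 lies on chromosome 14 from 46383525 to 46390669, Bmp6 on chromosome 13 from 38345716 to 38500314, and Bmp7 on chromosome 2 from 172868012 to 172940321. Id1 lies on chromosome 2 from 152736251 to 152737410, Id3 on chromosome 4 from 136143822 to 136145392, Msx1 on chromosome 5 from 37820491 to 37824585, and Lmx1a on chromosome 1 from 167688230 to 167848741. RefSeq promoter sequences of the same build matched 5 of the 8 genes (Bmp4, Bmp6, Id3, Msx1 and Lmx1a). Those of the target genes Id3 and Msx1 are shown because both genes were higher in the same classes below. Each sequence holds the 250 bases before the gene's start, 5′ to 3′ on the gene's strand, with each match to the SMAD-binding letters GTCT on either strand in capitals.
Id3, chr4:136143572-136143821, plus strand: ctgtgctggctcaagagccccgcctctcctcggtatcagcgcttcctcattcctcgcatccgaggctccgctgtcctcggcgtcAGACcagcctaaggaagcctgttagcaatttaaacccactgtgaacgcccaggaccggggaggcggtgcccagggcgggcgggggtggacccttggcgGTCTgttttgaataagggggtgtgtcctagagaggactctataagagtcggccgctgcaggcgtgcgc
Msx1, chr5:37824586-37824835, minus strand: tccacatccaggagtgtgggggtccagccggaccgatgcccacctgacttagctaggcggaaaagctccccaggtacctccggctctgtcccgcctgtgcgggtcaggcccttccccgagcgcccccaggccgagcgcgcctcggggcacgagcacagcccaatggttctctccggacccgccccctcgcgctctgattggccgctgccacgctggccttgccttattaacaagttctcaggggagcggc
The Id3 window held 2 matches to GTCT and the Msx1 window held 0, while Bmp6 held 3 and Bmp4 and Lmx1a 1 each. The Lmx1a window, chr1:167689308-167689557, lies inside the span given above and so precedes a start within the gene. The motif was present in 82.9% of all 32851 promoter windows of this length. The GC-rich SMAD motif GGCGCC, searched on the same windows, matched in 0 of the 5 genes and in 9.59% of all promoters.

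After filters on genes detected, mitochondrial share and doublets, 3129 of 4301 barcodes were kept: 1202 cells with a median of 30785.5 unique molecular identifiers (UMIs, counts of single captured transcripts) in replicate 2, and 1927 cells with a median of 22826 in replicate 4. The libraries shared 3 barcodes, of which 1 was retained. Neither these 8 genes nor the other 51 BMP pathway and midline genes took part in clustering the cells or in naming the classes. A hem or choroid plexus-like class held 33 cells in replicate 2 and 21 in replicate 4, and in it 10 of 12 choroid plexus markers (such as Folr1, Otx2 and Kcnj13) were raised. A vascular or meningeal-like class held 29 and 58 cells, a Cajal-Retzius cell-like class 14 and 23, and a radial glial cell (RGC)-like class 266 and 431. Intermediate progenitor cell (IPC)-like cells numbered 192 and 300, excitatory neuron-like cells 433 and 602, and GABAergic neuron-like cells 85 and 249. Levels are given as UMIs of a gene per 1000000 UMIs of the class (CPM) in each library, a scale on which fewer cells with a transcript and less RNA per cell cannot be told apart. The rate of 3 UMIs, between 0.183 and 7.60 CPM depending on the class and library, was taken as the floor of detection.

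Among the ligand genes, all 3 were highest in the midline and the meningeal classes. Bmp4, a ligand of the dorsal midline, was at 48.0 CPM in replicate 2 and 39.3 CPM in replicate 4 in the hem or choroid plexus-like class. In the vascular or meningeal-like class it was at 34.0 and 19.6 CPM. With all cells the ranges of these classes over the libraries did not overlap, but each value rested on 27 to 58 UMIs. In replicate 2, 1 hem or choroid plexus-like cell with 197698 UMIs gave 23 of the 58, and without it the level was 34.6 CPM. In replicate 4, 1 cell gave 10 of the 27, and without it the level was 28.4 CPM, inside the range of the vascular or meningeal-like class. Outside these classes Bmp4 had 3 UMIs in the named classes, 1 in RGC-like cells and 2 in GABAergic neuron-like cells. Bmp6, a ligand of the BMP5/6/7 group, was at 301 and 373 CPM in the vascular or meningeal-like class and at 77.8 and 102 CPM in the hem or choroid plexus-like class. Both libraries thus placed Bmp6 higher in the vascular or meningeal-like class. That class held 74.2% and 86.5% of all Bmp6 UMIs of the retained cells and made up 2.41% and 3.01% of the cells. In RGC-like cells Bmp6 had 18 UMIs in replicate 2 and 0 in replicate 4, and 13 of the 18 came from 1 cell.

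Bmp7 belongs to the same ligand group as Bmp6. It was at 141 and 191 CPM in the vascular or meningeal-like class and at 119 and 118 CPM in the hem or choroid plexus-like class. With all cells it was also above the floor, in both libraries, in 4 further classes. Its levels there were 10.1 and 11.4 CPM in Cajal-Retzius cell-like, 3.76 and 7.06 CPM in RGC-like cells, 1.37 and 2.15 CPM among IPC-like cells and 0.313 and 0.487 CPM in excitatory neuron-like cells. No adjacent pair in this order overlapped between the libraries, although the Cajal-Retzius values rested on 4 and 8 UMIs. In replicate 2, 3 of the 4 came from 1 cell, and without it the level was 2.78 CPM, under the floor of 7.60 CPM and under the RGC-like level. In the same library 1 cell gave 4 of the 8 IPC-like Bmp7 UMIs, and the level without it was 0.687 CPM. In excitatory neuron-like cells of that library 1 cell gave 2 of the 5, which left 3 UMIs, at the floor. GABAergic neuron-like cells held 0 Bmp7 UMIs, which allows a rate of up to 1.65 CPM in replicate 2 and 0.807 CPM in replicate 4.

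Id1 and Id3 encode inhibitors of basic helix-loop-helix transcription factors and are direct BMP targets. Id1 was at 287 and 182 CPM in hem or choroid plexus-like cells, 68.1 and 57.5 CPM in vascular or meningeal-like cells, 27.9 and 27.0 CPM in Cajal-Retzius cell-like cells and 11.3 and 10.4 CPM in RGC-like cells. It was at 2.75 and 3.77 CPM in GABAergic neuron-like, 1.37 and 2.41 CPM in IPC-like and 0.251 and 0.913 CPM in excitatory neuron-like cells. These classes kept the same order in both libraries. The cell with 197698 UMIs gave 123 of the 347 Id1 UMIs of the hem or choroid plexus-like class in replicate 2, and the level without it was 222 CPM. In Cajal-Retzius cell-like cells 1 cell gave 6 of 11 Id1 UMIs in replicate 2 and 1 gave 9 of 19 in replicate 4, and the levels without them were 14.4 and 14.6 CPM. Id3 was at 392 and 339 CPM in vascular or meningeal-like cells and at 390 and 202 CPM in hem or choroid plexus-like cells, 2 classes whose ranges overlapped. Without the cell with the most Id3 UMIs in each class and library, the levels were 367 and 321 CPM against 319 and 174 CPM. Those ranges narrowly did not overlap. With all cells Id3 was at 27.7 and 25.4 CPM in RGC-like cells and at 33.6 and 17.2 CPM in GABAergic neuron-like cells, whose ranges overlapped. Cajal-Retzius cell-like cells, the third class for Id1, held 0 and 2 Id3 UMIs. IPC-like cells held 1 and 3.

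Id3 in excitatory neuron-like cells differed between the libraries, with 9 UMIs in replicate 2 (0.564 CPM) and 60 in replicate 4 (3.65 CPM). In replicate 4, 44 of the 60 came from 1 cell with 95714 UMIs in all, against a class median of 26348 per cell. The same cell held 7 Id1 UMIs and all 10 Msx1 UMIs of that class and library. Without it the level of Id3 there was 0.98 CPM.

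Msx1 encodes a homeodomain repressor of the roof plate that BMPs induce. Its levels were 320 and 261 CPM in hem or choroid plexus-like cells and 95.9 and 98.7 CPM in vascular or meningeal-like cells. RGC-like cells were at 1.65 and 1.56 CPM, from 14 and 17 UMIs. In Cajal-Retzius cell-like and IPC-like cells Msx1 had 1 UMI in each library, under the floor of 3 UMIs, and in GABAergic neuron-like cells 0. All 10 UMIs of excitatory neuron-like cells were those of the single cell above.

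Lmx1a encodes a LIM homeodomain factor that specifies the roof plate and marks the hem and its derivatives. It was at 548 and 526 CPM in hem or choroid plexus-like cells, with at least 1 UMI in 32 of 33 and 19 of 21 cells. The second highest class was the Cajal-Retzius cell-like one, at 98.8 and 82.5 CPM from 39 and 58 UMIs. There 78.6% of cells (95% Clopper-Pearson interval 49.2 to 95.3) in replicate 2 and 60.9% (38.5 to 80.3) in replicate 4 had an Lmx1a UMI. Thinned to 5000 UMIs per cell, the shares were 50% and 23.8%, against 86.7% and 100% in hem or choroid plexus-like cells. In replicate 4, 1 cell gave 17 of the 58 UMIs, and the level without it was 60.9 CPM. The vascular or meningeal-like class, second for Msx1, held 1 and 0 Lmx1a UMIs. The RGC-like class held 0 and 3, which is at the floor.

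**Figure D1:**
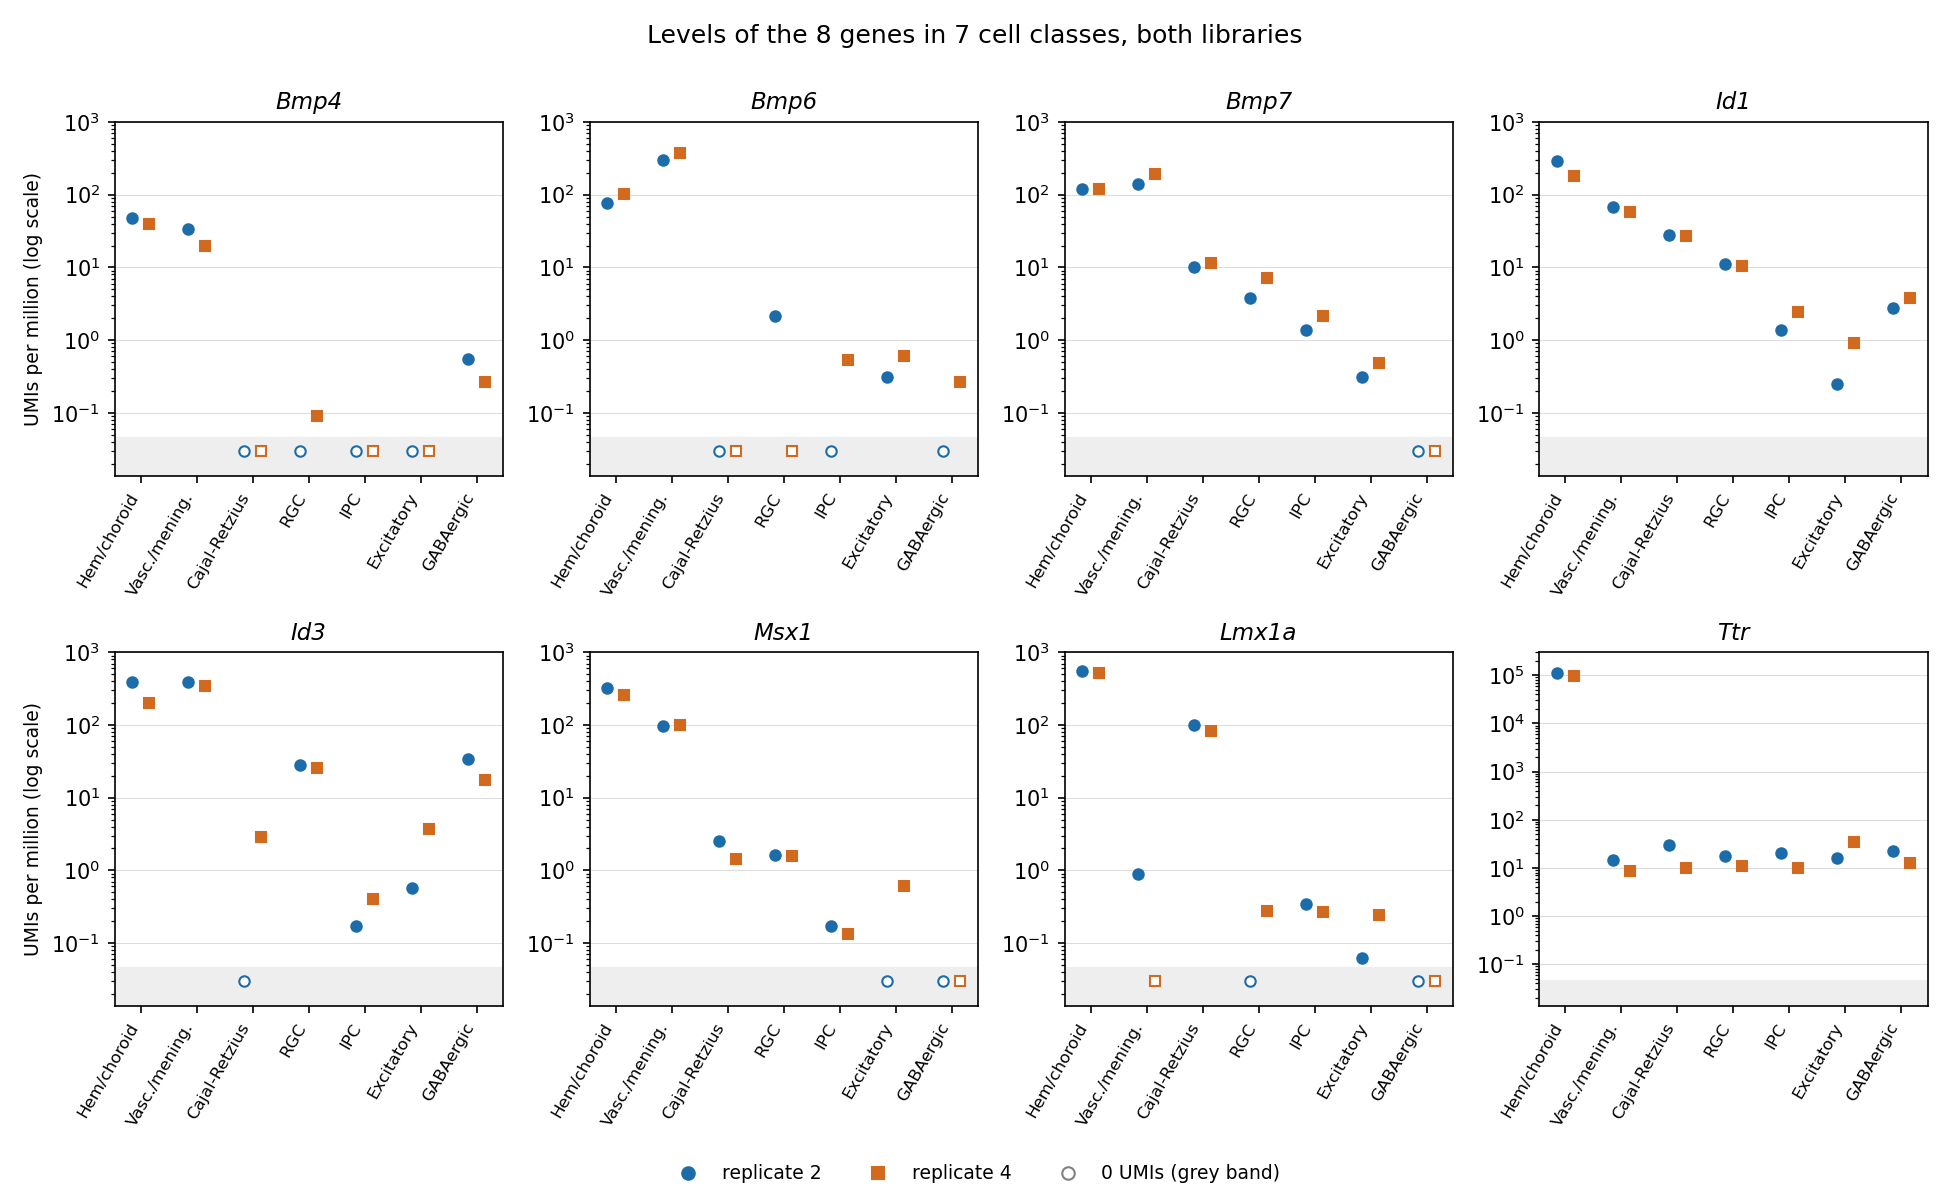
Levels of the 8 genes in CPM on a log axis (vertical) in 7 cell classes (horizontal), with 1 point per library, and open points in the grey band for a sum of 0 UMIs. Lmx1a was high in hem or choroid plexus-like and Cajal-Retzius cell-like cells, Bmp6 was highest in vascular or meningeal-like cells, and Ttr stood at 97883 to 110910 CPM in 1 class and at 8.79 to 34.2 CPM in all others, where the highest value rested on 1 cell.

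Ttr encodes transthyretin, the thyroid hormone carrier that the choroid plexus epithelium secretes into the cerebrospinal fluid. It made up 11.1% of the UMIs of the hem or choroid plexus-like class in replicate 2 and 9.79% in replicate 4, or 110910 and 97883 CPM. This class held 99.3% and 98.7% of the Ttr UMIs of all retained cells. Single cells of the class ran from 0 to 22567 Ttr UMIs with a median of 686 in replicate 2, and from 0 to 13331 with a median of 408 in replicate 4. In each of the other 6 classes Ttr was between 8.79 and 34.2 CPM. A Ttr UMI was found in 34.5% to 57.1% of their cells in replicate 2 and in 13% to 21.3% in replicate 4. The value of 34.2 CPM, of excitatory neuron-like cells in replicate 4, rested on 1 cell with 407 of the 562 Ttr UMIs, and without it the level was 9.45 CPM. The share of cells with a Ttr UMI was 40.5% over all other cells of replicate 2 and 20.3% in replicate 4. These levels were taken as the background of the measurement, and its source was not tested. Thinned to 5000 UMIs per cell, the share was 11.2% and 7.07% in RGC-like cells, against 80% and 77.8% in hem or choroid plexus-like cells.

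The ratio of the other genes to Ttr differed between classes. In the hem or choroid plexus-like class there were 0.00494 and 0.00537 Lmx1a UMIs for each Ttr UMI, whereas Cajal-Retzius cell-like cells held 39 and 58 Lmx1a UMIs beside 12 and 7 of Ttr. For Id3 the ratio was 0.00352 and 0.00207 in the hem or choroid plexus-like class, and RGC-like cells held 236 and 277 Id3 UMIs beside 151 and 121 of Ttr. Lmx1a was at low counts in RGC-like cells, with 0 and 3 UMIs where the hem or choroid plexus-like ratio to their Ttr would give 0.746 and 0.650. The part of free RNA in these counts was not tested.

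**Figure D2:**
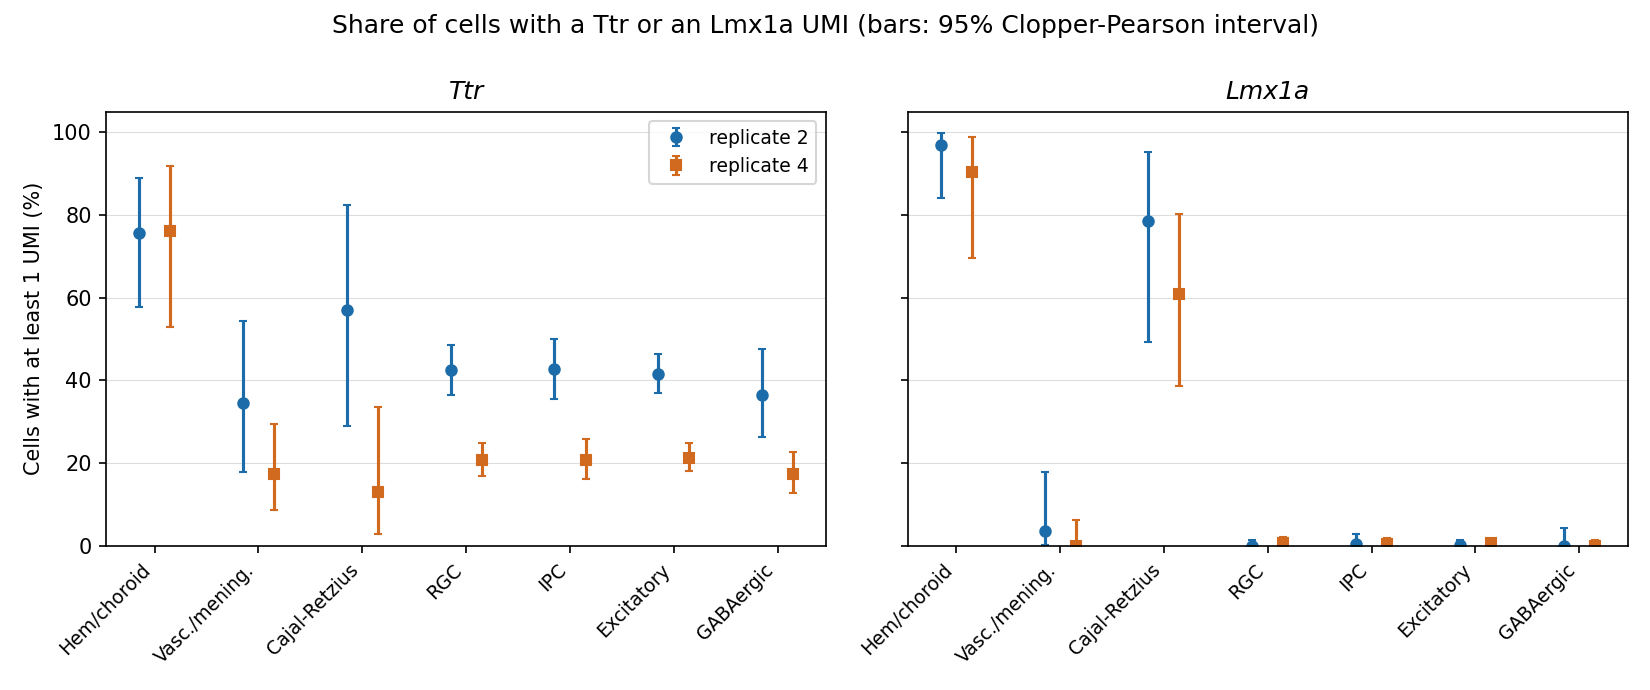
Percent of cells with at least 1 UMI of Ttr (left) and Lmx1a (right) in the 7 classes (horizontal), with 1 point per library and bars for the 95% Clopper-Pearson interval, which covers counting error only. Ttr was found in 34.5% to 57.1% of cells of every other class in replicate 2 and in 13% to 21.3% in replicate 4, while Lmx1a was found in many cells of 2 classes only and in at most 3.45% elsewhere.

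The hem or choroid plexus-like class was divided further, again without these 8 genes, and the parts are described without a test because each is small. A choroid plexus-like part had 18 and 9 cells, a hem-like part 9 and 6 cells with all 9 hem markers (such as Wnt3a, Wnt8b and Rspo1) and 7 of 10 RGC markers raised, and 6 and 6 cells had leading genes of both lists. Ttr was at 151864 and 161534 CPM in the choroid plexus-like part and at 36703 and 37345 CPM in the cells with both lists. In the hem-like part it was at 36.0 CPM in replicate 2 and 2458 CPM in replicate 4, where 408 of its 468 UMIs came from 1 cell. Lmx1a ran the other way, at 976 and 846 CPM in the hem-like part, 645 and 731 CPM in the cells with both lists and 420 and 312 CPM in the choroid plexus-like part. These 3 ranges did not overlap.

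Bmp4, Bmp7, Msx1 and Id1 were lower in the hem-like part than in the choroid plexus-like part in both libraries. Bmp4 had 2 and 0 UMIs in hem-like cells, against 61.2 and 56.7 CPM in choroid plexus-like cells. Msx1 was at 98.9 and 131 CPM against 384 and 288 CPM, and Bmp7 at 67.5 and 42.0 CPM against 139 and 142 CPM. Id3 was higher in the hem-like part, at 1021 and 305 CPM against 276 and 160 CPM, although 108 of its 227 UMIs in replicate 2 and 31 of 58 in replicate 4 came from 1 cell each. Id1 was at 207 and 131 CPM against 340 and 198 CPM, lower within each library although the ranges over both overlapped. Bmp6 went opposite ways, at 49.5 CPM against 89.5 CPM in replicate 2 and 126 CPM against 103 CPM in replicate 4.

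The vascular or meningeal-like class held 3 kinds of cells, and nearly all of its Bmp4, Bmp6 and Bmp7 UMIs lay in 1 of them. Meningeal-like cells (17 and 32, with all 8 markers such as Col1a1, Dcn and Foxc1 raised) had Bmp6 at 454 and 654 CPM, Bmp7 at 211 and 337 CPM, Bmp4 at 51.4 and 34.8 CPM and Msx1 at 143 and 171 CPM. These cells held all Bmp4 UMIs of the class, 336 of 336 and 545 of 551 Bmp6 UMIs, and 156 of 157 and 281 of 282 Bmp7 UMIs. Cluster 19 (9 and 18 cells) had all 9 endothelial markers raised, but 4 hemoglobin genes and 2 endothelial markers were among its 10 leading genes, so it is given by its number. It held 0 UMIs of Bmp4 and Bmp6 and 1 UMI of Bmp7 in each library. Mural-like cells (3 and 8) held 0 of Bmp4 and Bmp7 and, in 1 cell of replicate 4, 6 of Bmp6. Msx1 was divided like these ligands, with 106 of 107 and 143 of 146 UMIs of the class in meningeal-like cells, while Id1 and Id3 were not. Id3 was present in all 3, at 373 and 313 CPM in meningeal-like, 405 and 394 CPM in cluster 19 and 507 and 342 CPM in mural-like cells. In replicate 2, 1 cell gave 59 of the 119 Id3 UMIs of cluster 19, and 1 gave 32 of the 42 of mural-like cells. Id1 was at 177 and 146 CPM in cluster 19, from 52 and 57 UMIs, and meningeal-like cells, although more numerous, held 21 and 15 UMIs. The 9 erythroid markers of the whole class summed to 61.8 CPM in replicate 2 and 12222 CPM in replicate 4. Without cluster 19, an alternative chosen after seeing the data, the mean level of the class over the libraries went from 62.8 to 27.5 CPM for Id1, from 337 to 457 CPM for Bmp6 and from 365 to 353 CPM for Id3. For Bmp4 it went from 26.8 to 36.4 CPM.

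**Figure D3:**
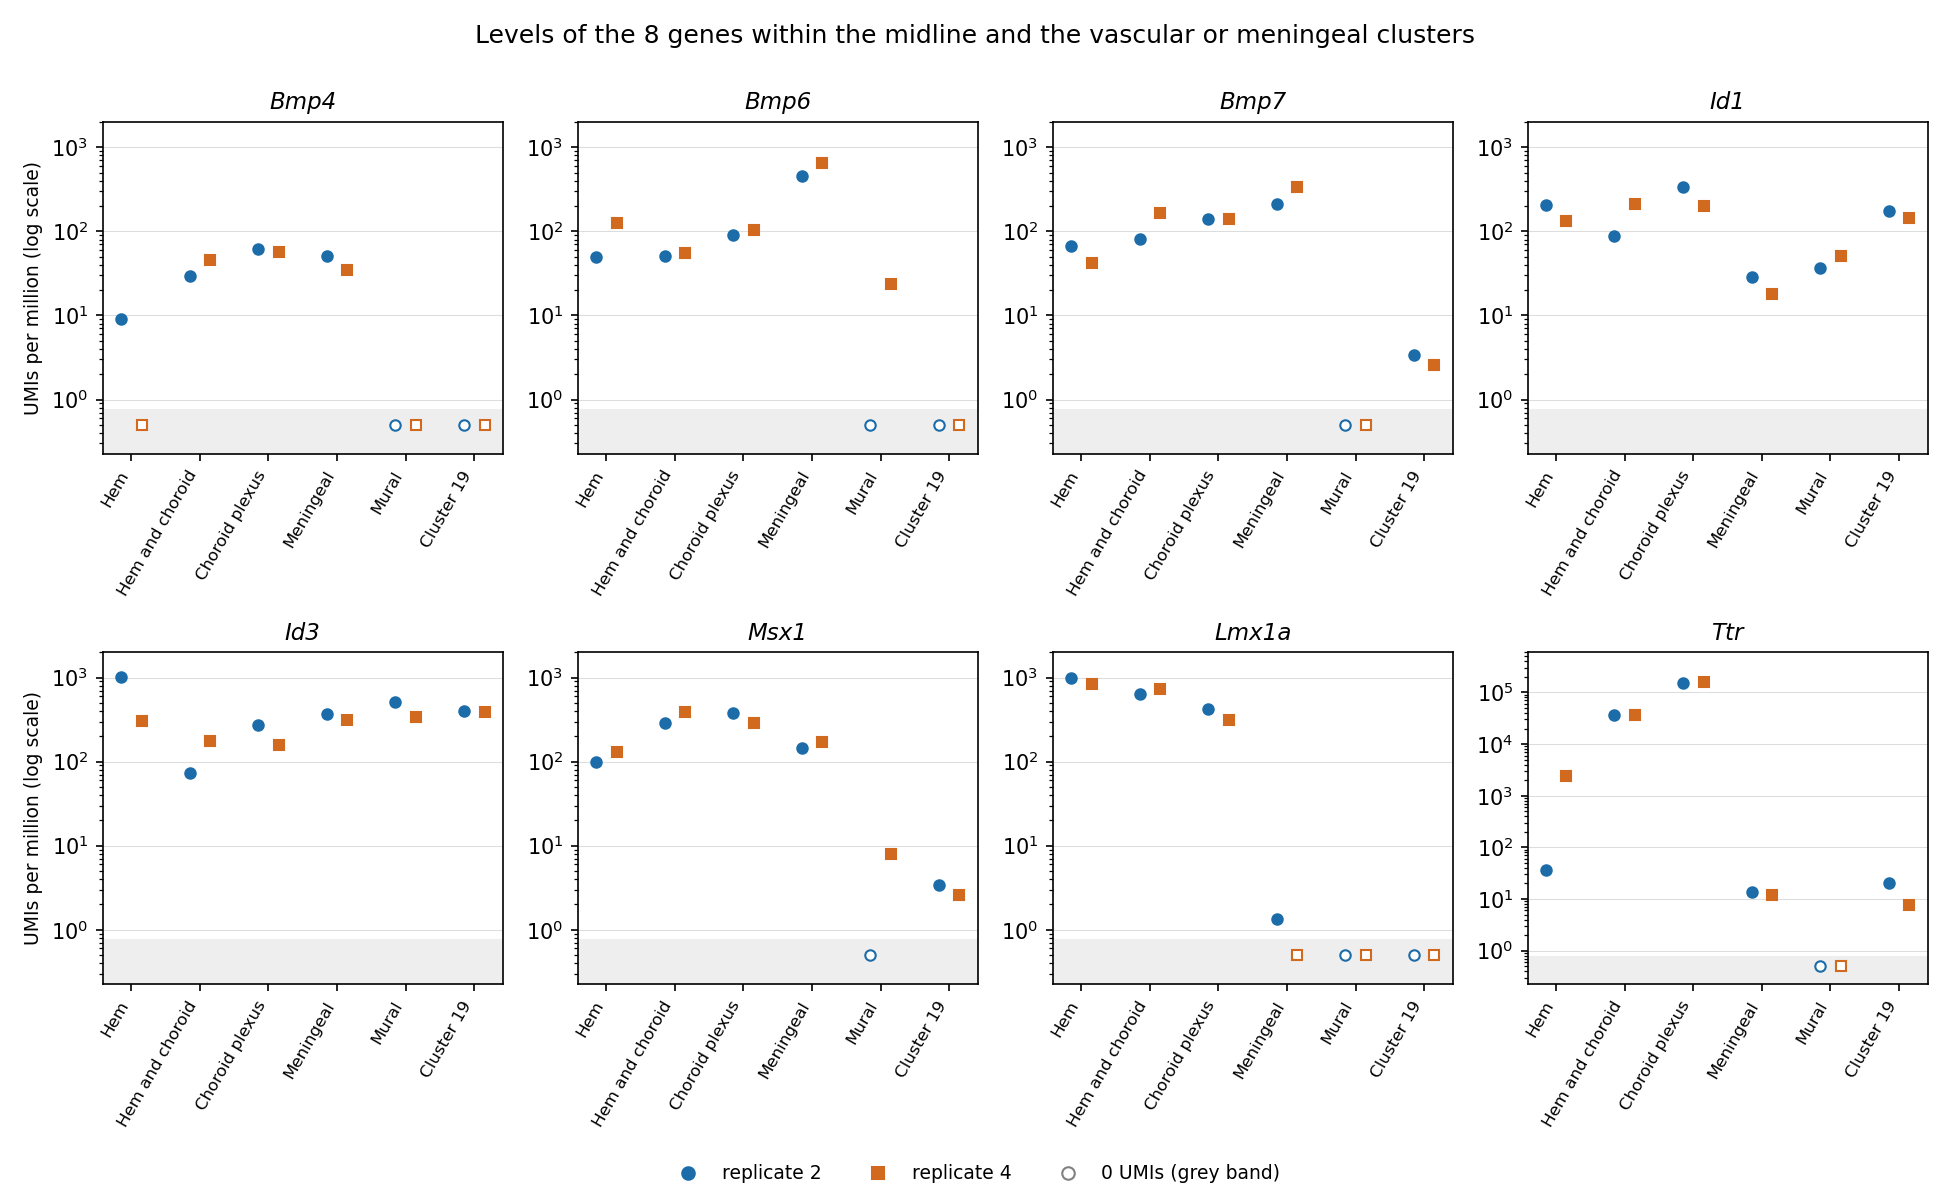
Levels of the 8 genes in CPM on a log axis (vertical) in the parts of the hem or choroid plexus-like and the vascular or meningeal-like classes (horizontal), with 1 point per library and open points for 0 UMIs. Bmp4 was at 0 UMIs in mural-like cells and cluster 19, Id3 was between 73.3 and 1021 CPM in every part, and from the hem-like to the choroid plexus-like part the level of Lmx1a was lower and that of Ttr higher.

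Within cells the 8 genes were often found together at the midline. A hem or choroid plexus-like cell held UMIs of a median of 6 of the 8 genes in each library. Msx1 and Lmx1a shared 25 of 33 cells in replicate 2 and 18 of 21 in replicate 4. Lmx1a was found without Ttr in 8 and 4 cells, and Ttr without Lmx1a in 1 and 1. A meningeal-like cell held a median of 5 of the genes in replicate 2 and 4 in replicate 4. There Bmp6 and Bmp7 shared 12 of 17 and 26 of 32 cells. These counts grow with the UMIs of a cell and are given as a description.

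RGC-like cells fell into 3 clusters and GABAergic neuron-like cells into 3, and Id1, Id3 and Msx1 were not spread alike over them. Id1 was highest in the dividing RGC-like cluster 9, led by Top2a, at 18.3 and 12.2 CPM, against 6.86 and 11.2 CPM in cluster 7 and 2.69 and 3.33 CPM in cluster 8. Msx1 was highest in cluster 8, at 4.71 and 6.66 CPM from 7 and 12 UMIs, with 0.312 to 1.57 CPM in clusters 7 and 9. Id3 ran from 12.5 to 57.9 CPM over the 3 clusters, and the range of cluster 7 overlapped those of clusters 8 and 9. Among GABAergic neuron-like cells, 60 of 61 Id3 UMIs in replicate 2 and 47 of 64 in replicate 4 lay in cluster 3, led by Erbb4 and Nxph1. This cluster was at 48.2 and 41.1 CPM, and 31.5% and 30.9% of its cells had a UMI. In cluster 14 it was at 1.78 and 8.48 CPM, where 13 of the 17 UMIs of replicate 4 came from 1 cell. Cluster 3 made up 54 of 85 cells in replicate 2 and 81 of 249 in replicate 4, and its part in the difference of the GABAergic Id3 level between the libraries was not tested.

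**Figure D4:**
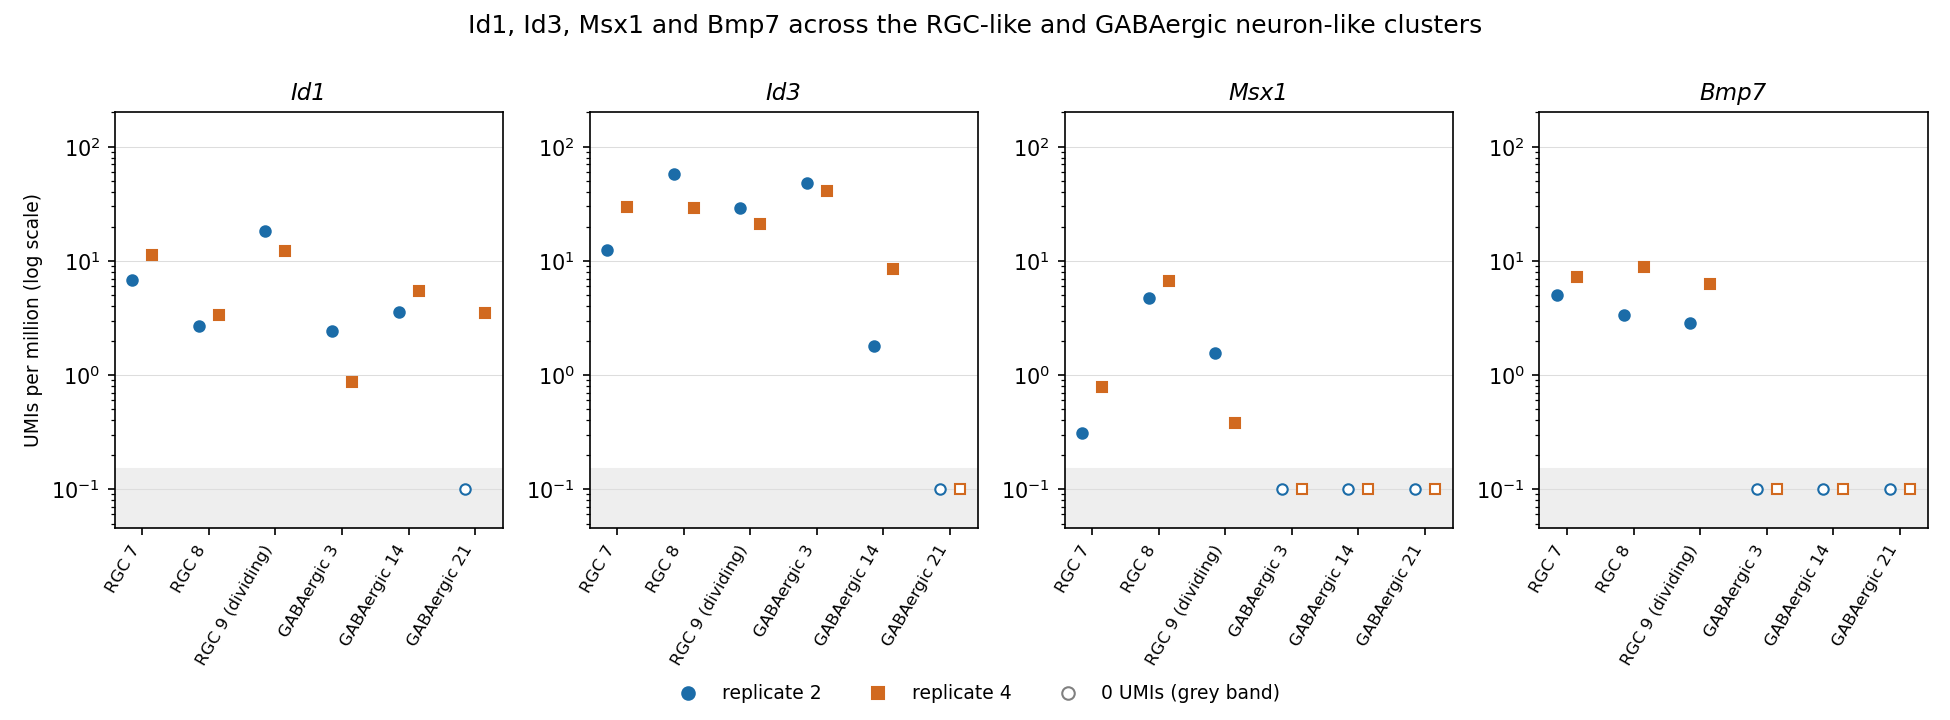
Levels of Id1, Id3, Msx1 and Bmp7 in CPM on a log axis (vertical) in the RGC-like clusters 7, 8 and 9 and the GABAergic neuron-like clusters 3, 14 and 21 (horizontal), with 1 point per library and open points for 0 UMIs. Id1 was highest in RGC-like cluster 9, Msx1 in RGC-like cluster 8, and Id3 among GABAergic neuron-like cells in cluster 3, while cluster 21, with 1 cell in replicate 2, held 0 Id3 UMIs.

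Classes were then compared over the libraries with edgeR's quasi-likelihood test on the summed UMI counts of 14809 genes, with Benjamini-Hochberg adjustment over all of them. The comparison of hem or choroid plexus-like with RGC-like cells asks how the genes differ between these classes. The first class joined 27 choroid plexus-like cells, 15 hem-like cells and 12 cells with both lists. Of its 85 Bmp4 UMIs, 74 lay in choroid plexus-like and 2 in hem-like cells. All 8 genes were higher in hem or choroid plexus-like cells, where 44.7% of all genes passed the test, 23% of all genes higher and 21.7% lower. Their median log2 fold change was 7.08, against -0.07 over all genes. The log2 fold change was 12.91 ± 0.67 (SE) for Ttr over the background level of RGC-like cells (adjusted p = 1.48e-07), 7.57 ± 0.40 for Msx1 (adjusted p = 2.78e-07) and 6.59 ± 0.66 for Bmp6 (adjusted p = 2.01e-05). Bmp7 was higher by 4.50 ± 0.29 on the log2 scale, Id1 by 4.54 ± 0.30 and Id3 by 3.58 ± 0.48. For Bmp4 and Lmx1a the RGC-like sums held 1 and 3 UMIs, so the ratio of their CPM over both libraries is given with its counting interval: 871 (152 to 34809) for Bmp4 and 3495 (1193 to 16975) for Lmx1a, with adjusted p-values of 9.20e-06 and 3.89e-08. Bmp6 had 0 RGC-like UMIs in replicate 4, and within replicate 2 its log2 fold change was 5.29. Bmp7 gave 5.09 within replicate 2 and 4.06 within replicate 4.

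Vascular or meningeal-like cells also exceeded RGC-like cells in 6 of the 8 genes, where 46.9% of all genes passed, 23% higher and 23.9% lower. The log2 fold change was 8.37 ± 0.64 for Bmp6 (adjusted p = 2.71e-06), 5.84 ± 0.40 for Msx1 (adjusted p = 1.35e-06), 4.84 ± 0.29 for Bmp7 (adjusted p = 5.62e-07), 3.71 ± 0.48 for Id3 (adjusted p = 7.04e-05) and 2.46 ± 0.30 for Id1 (adjusted p = 4.97e-05). For Bmp6 the RGC-like sums were again 18 UMIs in replicate 2, 13 of them from 1 cell, and 0 in replicate 4, and its log2 fold change within replicate 2 was 7.06. Bmp4 passed with 67 UMIs against 1, a ratio of 501 (87.0 to 20093). The median over the 8 genes was 4.28, against -0.09 over all genes. Ttr, at background in both classes, gave -0.41 ± 0.55 (adjusted p = 0.581). Lmx1a had 1 UMI against 3 and no fold is given. Without cluster 19 the same 6 genes were called, and the log2 fold change of Id1 was 1.26 (adjusted p = 0.0146). This comparison and the preceding one share the RGC-like sums.

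RGC-like and IPC-like cells are successive steps of the cortical lineage, and 4 of the 8 genes were higher in RGC-like cells, where 32.7% of all genes passed, 17.1% higher and 15.6% lower. Id3 stood 6.27 ± 0.87 higher on the log2 scale (adjusted p = 0.000227), from 513 UMIs against 4. Id1 was higher by 2.38 ± 0.38 (adjusted p = 0.000659), Bmp7 by 1.52 ± 0.38 (adjusted p = 0.0112) and Msx1, from 31 UMIs against 2, with a count ratio of 10.6 (2.70 to 91.6, adjusted p = 0.0267). Within the libraries Id1 gave 2.94 in replicate 2 and 2.0 in replicate 4. Bmp6, with 18 UMIs against 4, gave 1.5 ± 1.35 (adjusted p = 0.438), and Bmp4 and Lmx1a were at or near the floor in both. At a clustering resolution of 0.5 Id3 gave 1.10 (adjusted p = 0.145), Bmp7 0.58 (adjusted p = 0.403) and Msx1 -0.36 (adjusted p = 0.754), and Id1 alone kept its call. Msx1 also lost it where classes and sums came from separate UMIs of each cell (2.39, adjusted p = 0.0555).

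Against excitatory neuron-like cells, 4 genes were higher in RGC-like cells and 1 lower. This share of 62.5% was near the 54% of all genes that passed, 24.4% higher and 29.6% lower. Id1 was higher by 3.86 ± 0.40 (adjusted p = 6.69e-06), Bmp7 by 3.41 ± 0.42 (adjusted p = 4.36e-05), Id3 by 3.33 ± 0.54 (adjusted p = 0.000269) and Msx1 by 2.0 ± 0.64 (adjusted p = 0.0218). Of the UMIs on the excitatory side, 10 of 10 for Msx1 and 44 of 69 for Id3 came from the single cell named above. Within the libraries Id3 gave 5.26 in replicate 2 and 2.56 in replicate 4, and Id1 gave 5.07 and 3.24. Msx1, at 0 excitatory UMIs in replicate 2, gave 1.10 within replicate 4. The call of Msx1 was lost at resolution 0.5 (1.73, adjusted p = 0.0660) and with only these 2 classes in the fit (2.13, adjusted p = 0.0856). Ttr was lower by -1.11 ± 0.44 (adjusted p = 0.0493), with -0.14 within replicate 2 and -1.86 within replicate 4, where 407 of the 562 excitatory Ttr UMIs came from 1 cell. Without the 2 cells outside the midline class with over 1% Ttr UMIs, its log2 fold change was -0.12 (adjusted p = 0.826), and in all its call was lost under 6 alternatives with adjusted p-values from 0.0506 to 0.826. Under the others of these alternatives the log2 fold change of Ttr stayed between -1.10 and -0.93.

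GABAergic neuron-like cells exceeded excitatory neuron-like cells in 2 of the 8 genes. This share of 25% was near the 24.3% of all genes that passed, 9.89% higher and 14.4% lower. Id3 was higher by 3.28 ± 0.60 on the log2 scale (adjusted p = 0.00184) and Id1 by 2.29 ± 0.59 (adjusted p = 0.0148). Within the libraries Id3 gave 5.63 in replicate 2 and 2.07 in replicate 4, where the cell named above held 44 of the 60 excitatory Id3 UMIs, and Id1 gave 3.14 and 1.86. The call of Id1, from 19 UMIs in each class, was lost where list genes were allowed in clustering (0.95, adjusted p = 0.262). The call was also lost where classes and sums came from separate UMIs (1.91, adjusted p = 0.125). With only these 2 classes in the fit, Id1 gave 2.35 without a call (adjusted p = 0.0709). Bmp7 had 0 UMIs against 13 (adjusted p = 0.173), and the counting interval of the ratio reached 1.92. Its call depended on the cells: it was called lower in GABAergic neuron-like cells with cells of at least 500 genes (adjusted p = 0.0468) and with doublets kept (adjusted p = 0.0438), and higher at resolution 0.5 (adjusted p = 0.0261). Of all called genes in this comparison 40.7% were higher in GABAergic neuron-like cells, and 51.1% with DESeq2's size factors. Those factors moved the median log2 fold change of all genes from -0.09 to 0.03 in vascular or meningeal-like against RGC-like cells, and changed the sign of none of the calls of the 8 genes.

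**Figure D5:**
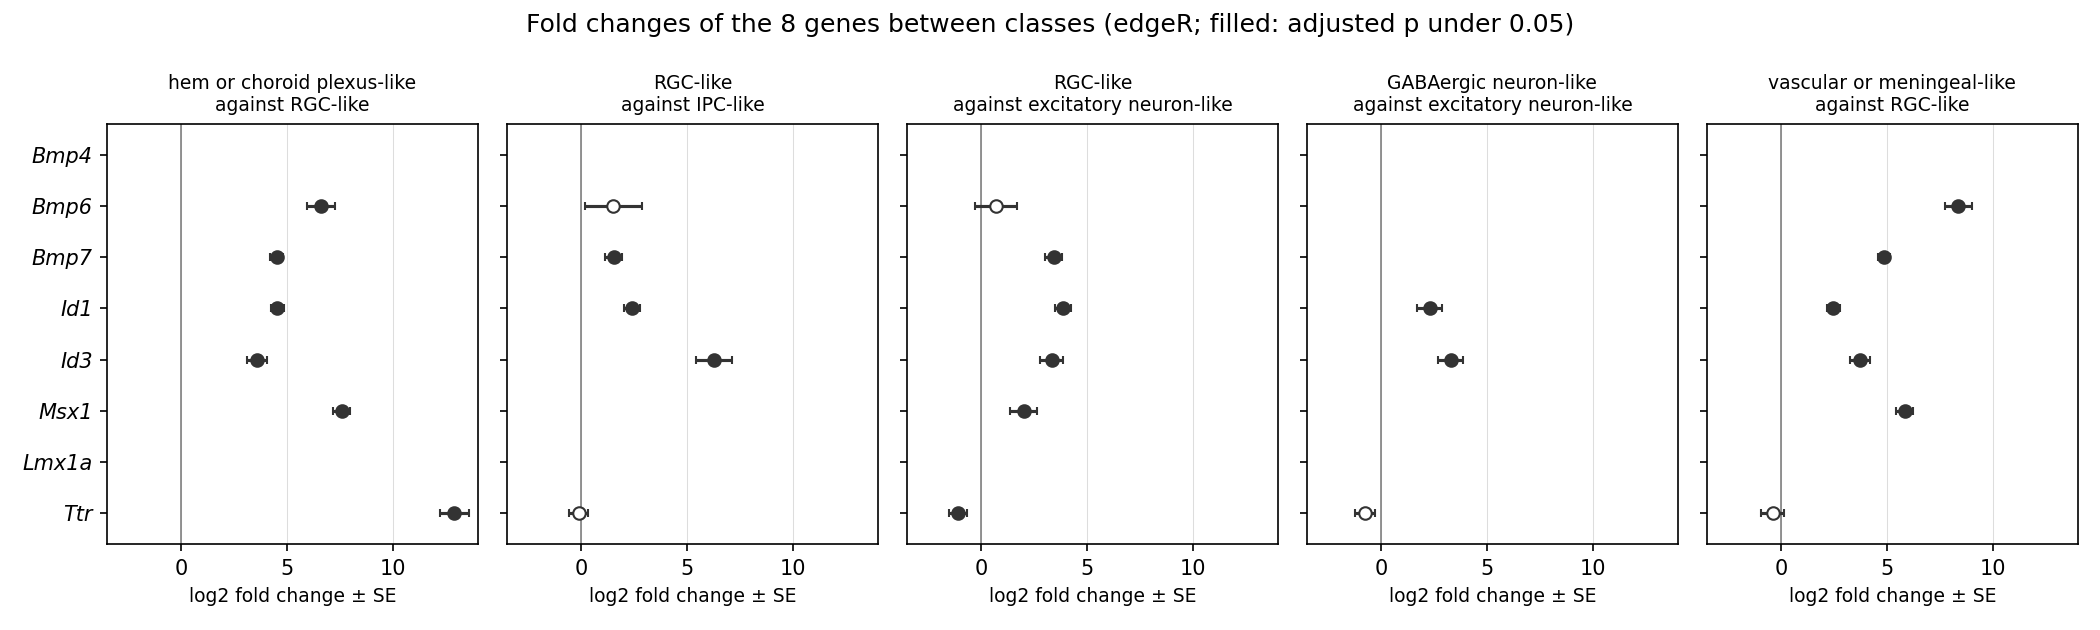
Fitted log2 fold changes of the 8 genes with their SE (horizontal) in the 5 comparisons between classes, filled where the adjusted p was under 0.05; genes with 3 or fewer UMIs in either class are not drawn. Against RGC-like cells the hem or choroid plexus-like values lay between 3.58 for Id3 and 12.91 for Ttr, the latter over a background level, and Ttr was near 0 in vascular or meningeal-like cells.

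Of 51 further genes of the pathway and the dorsal midline, 44 passed the filter on low counts. In hem or choroid plexus-like against RGC-like cells, 15 of the 44 were higher and 12 lower, 61.4% called beside 44.7% of all genes, with a median log2 fold change of -0.06 beside -0.07 over all genes. The ligand genes with a call were higher, 3 of 6, among them Gdf5 (7.03 ± 0.61, adjusted p = 2.85e-05). Of 10 receptors and co-receptors 7 were lower, led by the repulsive guidance molecule Rgma, a BMP co-receptor (-2.86 ± 0.34, adjusted p = 4.87e-05), and 0 were higher, beside 21.7% of all genes lower. Among further targets Msx2, the paralog of Msx1, was higher (42 UMIs against 0, adjusted p = 0.000153) and Id4, an Id family member of RGCs, was lower (-2.50 ± 0.66, adjusted p = 0.00850). The antagonist gene Sostdc1 was higher (9.12 ± 0.23, adjusted p = 1.62e-07), at 661 and 670 CPM against 1.06 and 1.37 CPM, and Bmper, a secreted BMP modulator, was lower (-6.35 ± 0.63, adjusted p = 1.13e-05). The 5 Zic genes among the 6 dorsal midline factors were higher, by 2.02 to 4.07 on the log2 scale, beside 23% of all genes higher. In vascular or meningeal-like cells 5 of these 6 factors were also higher than in RGC-like cells.

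In vascular or meningeal-like against RGC-like cells 16 of the 44 were higher and 11 lower, 61.4% called beside 46.9% of all genes. Those with the largest fitted rise were the endothelial type I receptor Acvrl1 (126 UMIs against 1, adjusted p = 1.62e-05), the ligand Bmp5 (7.99 ± 0.93, adjusted p = 5.25e-05) and Lmx1b, the paralog of Lmx1a (16 UMIs against 0, adjusted p = 0.000885). Lmx1b had 8 UMIs in each library of this class and 0 in hem or choroid plexus-like and RGC-like cells, while Lmx1a had 1 in all in this class. The antagonist Noggin (Nog) was at 0 UMIs here and at 179 and 212 UMIs in RGC-like cells, and Id4 (-7.50 ± 1.0) and Bmper (-5.94 ± 0.54) were lower as well. In RGC-like against IPC-like cells 29.5% of the 44 were called, near the 32.7% of all genes: 8 were higher, among them Nog (5.58 ± 0.48), Sostdc1 (24 UMIs against 0) and the ligand Bmp3 (19 UMIs against 0), and 5 were lower, among them the antagonist Chrd (-2.13 ± 0.69), Id2 (-1.82 ± 0.33) and the co-receptor Rgmb (-1.59 ± 0.25).

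Against excitatory neuron-like cells 50% of the 44 were called, near the 54% of all genes. Of these, 15 were higher in RGC-like cells, led by Bmper (4.95 ± 0.37), Nog (4.76 ± 0.39) and Id4 (4.33 ± 0.65), and 7 were lower, led by Id2 (-3.89 ± 0.35), Bmp3 (-3.51 ± 0.65) and Chrd (-2.23 ± 0.64). Id2, of the same family as Id1 and Id3, was thus on the side of the neurons where those were on the side of the RGC-like cells. In GABAergic against excitatory neuron-like cells 29.5% of the 44 were called beside 24.3% of all genes. There 5 were higher, led by Bmper (4.83 ± 0.37), the antagonist Nbl1 (2.06 ± 0.65) and Rgmb (1.42 ± 0.24), and 8 were lower. The inhibitory SMAD gene Smad6 had 0 UMIs in GABAergic neuron-like cells, against 5.39 and 5.72 CPM in excitatory neuron-like cells. Sostdc1 (0 UMIs against 30) and Bmp3 (2 against 308) were lower as well.

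The genes whose pattern over the 7 classes was most like each of the 8 were found by Pearson's r of log2(mean CPM + 10) among 18314 genes. As all 8 have 1 or 2 high classes, many genes reach an r near 1, and the points share libraries and depth. Cpz (r = 0.9998) and Mecomos (r = 0.999) were closest to Bmp4, Pik3ap1 (r = 0.9995) and Lepr (r = 0.9994) to Bmp6, and Zfp449 (r = 0.999) and 4930550C14Rik (r = 0.998) to Bmp7. Arhgef3 (r = 0.997) and Creld2 (r = 0.993) were closest to Id1, and Gm49969 (r = 0.995) and Cobl (r = 0.991) to Id3. Igsf1 and Tdrp were closest to Msx1 (both r = 0.999), 1700007K13Rik (r = 0.999) and Ccdc65 (r = 0.998) to Lmx1a, and Tekt4 and Mfsd4b1 to Ttr (both r = 0.999). Several of these genes were low even in their highest class. Mecomos was at 8.28 CPM in replicate 2 and at 1.46 CPM in replicate 4, the latter under the floor of 4.37 CPM.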

How the data were processed

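Raw UMI counts per gene and barcode were deposited, made by the authors with Cell Ranger 7.0.0 (10x 3′ v3.1 chemistry) against mm10; the depth was 40267872 and 49422007 UMIs in 1712 and 2589 barcodes. Barcodes under 1000 genes or over 10% mitochondrial UMIs were dropped, as were doublets called by Scrublet (0.743% and 2.23%). Cells were clustered in scanpy 1.11.5 (2000 variable genes without the listed genes, 30 components, Leiden resolution 1). Clusters were named from fixed markers; erythroid markers were left out of naming, and the rule for dividing clusters was set, after the clusters were seen. Clusters 2 and 6 stayed unnamed. UMIs were summed per class and library (14 sums) and fitted in edgeR 4.0.16 (TMM, filterByExpr, quasi-likelihood, Benjamini-Hochberg), checked on simulated data. The simulation changed only genes with many UMIs, so it does not cover genes at low counts or sums that rest on single cells. The sums of 1 number come from 1 library, so the number pairs them; over 21 class pairs the correlation of deviations had a median of 0.0823 (0.00511 to 0.246). All 8 genes are named; of the other lists, the 3 called genes furthest from 0 each way that moved alike in both libraries, and for each of the 8 the 2 genes most alike. The 8 genes and all lists were chosen with earlier results of these data known. Intervals and floors cover counting error only. Alternatives included cell filters, resolutions, DESeq2 1.42.0, the library as a block and leaving out each library.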

Additional observations from a re-analysis of the deposited data

Results flagged for a closer look

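UMIs of the 8 genes were also present in the 1172 barcodes left out before clustering, which enter no comparison. They came to 13 for Bmp4, 109 for Bmp6, 94 for Bmp7, 47 for Id1, 142 for Id3, 24 for Msx1, 56 for Lmx1a and 4126 for Ttr, each above the 3 UMIs that a count of 0 allows. Of the Ttr UMIs, 2676 lay in 156 of the 442 barcodes with under 1000 genes in replicate 2, at 3822 CPM, and 465 in 87 of the 423 such barcodes in replicate 4, at 475 CPM. Bmp6 lay mostly in called doublets, with 21 of 26 UMIs in 1 barcode of replicate 2 and 34 of 63 in 1 barcode of replicate 4.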

How the results depend on the processing

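All 5 counts of called genes stayed within 1.5 times of 6615, 4846, 7998, 3600 and 6951 under every alternative run; with the library as a replicate block they were 6737, 5155, 8291, 3916 and 7088, and the block changed no call of the 8 genes. With all genes of at least 1 count, 55.4% of calls were higher in RGC-like than in excitatory neuron-like cells, against 45.2%. Of 588 fold changes of the 8 genes under other settings with a test, 557 kept direction and side of the threshold, 14 lost and 5 gained a call in the same direction, and 12 changed sign, of which 1 also lost a call and 2 gained one. At resolution 0.5, RGC-like against IPC-like gave -2.33 for Bmp4, -0.36 for Msx1 and 0.017 for Ttr. There GABAergic against excitatory neuron-like gave 2.96 for Bmp7 (adjusted p = 0.0261), 0.032 for Msx1 and 5.70 for Lmx1a (adjusted p = 3.61e-06, edgeR), and no Cajal-Retzius class was named. RGC-like against excitatory neuron-like gave -0.39 for Bmp6 with cells of at least 500 genes, and -1.61 for Bmp6 and -1.81 for Bmp4 with doublets kept. RGC-like against IPC-like gave 0.018 for Ttr at 5% mitochondrial UMIs and 0.30 for Lmx1a with sums from separate UMIs. GABAergic against excitatory neuron-like gave 0.21 for Ttr without the cells of over 1% Ttr. Except for Msx1 at resolution 0.5, none of these had a call in the main comparison, and the cause was not tested. The cells with over 1% Ttr, the naming of the mixed cluster as excitatory and leaving out cluster 19 were alternatives chosen after seeing the data. Leaving out 1 library leaves no residual degrees of freedom and so gives values only. Of 80, 65 moved by less than the spread between libraries and no called value changed sign. That spread was taken from the same 2 libraries, so the count of 65 was largely set in advance and tests little. Without replicate 2, Bmp6 had 0 UMIs in RGC-like cells. Of 544 levels under other cell choices, 475 stayed within 1 SD of the libraries, as did 19 of 56 shares of cells after thinning. Thinning removes UMIs from a cell, so the direction of most of those shifts in shares was set in advance. Small classes limit the depth: 1 cell gave 44.2% and 45.5% of the Bmp4 UMIs of choroid plexus-like cells, and 90.9% of the Bmp6 UMIs of hem-like cells in replicate 2.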

Other observations

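Cluster 6, which stayed unnamed and had a median of 4590 UMIs per cell, differed between the libraries. In replicate 2 its 59 cells held 249 Ttr UMIs (623 CPM), 52 Id3 UMIs (130 CPM) and 34 Id1 UMIs (85.1 CPM). A single cell gave 227 of these Ttr UMIs, and another gave 31 of the Id3 and 25 of the Id1 UMIs. In replicate 4 its 54 cells held 16 Ttr, 4 Id3 and 1 Id1 UMIs. Bmp4 and Bmp6 were at 0 UMIs in both. Cluster 2, with markers of IPC and excitatory neurons, held 1 Id1 and 1 Id3 UMI in each library and 0 of Bmp4, Bmp7 and Msx1.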
